A study of Mus musculus with 28 samples.

Results

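The complement and coagulation proteins of hepatocytes considered here are 36 genes, chosen by symbol from the 22187 genes of the table: 8 of the lectin, classical and alternative complement pathways, 5 of the terminal complement complex, 8 vitamin K dependent and contact coagulation factors and cofactors, 4 fibrinogen and factor XIII chains, 7 inhibitors, fibrinolytic and adhesion proteins, and 4 inter-alpha-trypsin heavy chains. No measured value entered the choice of members, but it was made with other results of these data known. The study asked what interleukin-17 signaling in hepatocytes contributes to liver cancer under alcohol feeding. Gene expression was measured by bulk RNA sequencing in 28 liver libraries of mice, 14 from tumors and 14 from non-tumor liver.

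Every mouse had received diethylnitrosamine (DEN), a liver carcinogen, at 25 mg/kg when 2 weeks old, and carried floxed alleles of Il17ra, the gene of the interleukin-17 receptor A chain. The dHEP mice also carried Cre recombinase under the albumin promoter, which is active in hepatocytes, and FF mice carried the floxed alleles without Cre. Mice were kept for 18 weeks on a diet that the labels call both a high-fat diet with alcohol and a liquid ethanol diet (alcohol below), or on chow. This gave 8 groups: tumors and non-tumor liver of dHEP and FF mice on alcohol (n = 4 each) and on chow (n = 3 each). Within a group, values stand in the order of the mice: dHEP-518, then dHEP-520, then dHEP-549, then dHEP-550 for dHEP on alcohol, FF-503, then FF-523, then FF-581, then FF-595 for FF on alcohol, and dHEP-155, dHEP-164 and dHEP-165 for dHEP on chow. The FF chow tumors came from FF-167, FF-168 and FF-169 and the FF chow non-tumor livers from FF-157, FF-158 and FF-159, so only this genotype and diet has tumor and non-tumor tissue of different mice. Alcohol-fed and chow-fed mice have separate number ranges, so the diet and the cohort cannot be told apart, nor can ethanol and the rest of the diet.

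Hepatocytes secrete most of the complement and clotting proteins of plasma. In complement, mannose-binding lectins and their proteases or antibody start a cleavage cascade that converges on C3, and the late components assemble into a pore, the membrane attack complex. In coagulation, a chain of serine proteases ends with thrombin, which cuts fibrinogen into fibrin, while serpins and the protein C system restrain the chain and plasmin dissolves the clot; several of these genes, fibrinogen and C3 among them, are acute-phase genes raised by interleukin-6 and interleukin-1.

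Values are CPM of the deposited table, read counts scaled to the same total in each library, from libraries of 9.57M to 17.82M reads. All 36 members stood at 1 CPM or more in every library, and together they held between 3.39% and 6.02% of a library's reads. The hepatocyte markers were present in every library: Alb, the albumin gene, and 9 others summed to between 139192 and 260514 CPM in tumors and between 81677 and 132536 CPM in non-tumor liver. In bulk tissue, fewer cells of a type and less RNA per cell cannot be told apart. Il17ra read 8.34 to 12.99 CPM in the 7 dHEP non-tumor livers and 14.7 to 31.0 CPM in the 7 FF ones, without overlap, while the tumors of both genotypes overlapped (8.38 to 29.4 CPM in dHEP, 20.8 to 33.9 CPM in FF). A pair of chow libraries of FF mice stood apart in A1bg, 1 of 7 female-biased liver genes read. The non-tumor liver FF-158 and the tumor FF-168 had 131 and 9.59 CPM, against at most 1.13 CPM in the 26 other libraries. Summed over the 7 genes only FF-158 stood apart, at 1694 CPM. FF-168 summed to 178 CPM, inside the tumor range of 94.2 to 659 CPM. The labels give no sex and do not say whether libraries come from separate mice beyond the numbers in their names, so p-values measure the spread between these libraries.

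Between tumors and non-tumor liver the members split instead of moving as one set. Called at an adjusted p under 0.05 (limma on log2(CPM + 1), Benjamini-Hochberg over all tested genes), 4 rose in tumors of all 4 genotype and diet combinations: Cfi (complement factor I), F11 (factor XI), Kng1 (kininogen) and Serpinf2 (alpha-2-antiplasmin). A further 4 fell in all 4: Mbl1 (mannose-binding lectin A), Masp1 (its protease), C8b and C9 (pore components). Itih2 rose in 3, and Mbl2, Masp2, C6, Proc and Vtn fell in 3. Fgb and Serpind1 rose in 1 or 2 comparisons, and C8a, C8g, F7, F9, F10, F13b, Serpinc1, Pros1 and Itih1 fell in 1 or 2. No comparison called the remaining 11 (C2, Cfb, C3, F2, F5, F12, Fga, Fgg, Plg, Itih3 and Itih4), and no member was called in opposite directions.

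In alcohol-fed dHEP mice 6 members rose and 7 fell, where 20.4% of all tested genes were called (12.9% higher and 7.54% lower). In alcohol-fed FF mice 7 rose and 9 fell, against 24.6% of all genes (13.9% higher, 10.6% lower). In chow-fed dHEP mice 4 rose and 15 fell, against 27.9% (17.2% and 10.7%), and in chow-fed FF mice 5 rose and 15 fell, against 30.8% (21.2% and 9.55%). The median log2 fold change of the 36 members was -0.07, -0.10, -0.18 and -0.39 in these 4 comparisons, beside 0.09, 0.05, 0.14 and 0.16 over all tested genes. The most negative value in the heatmap of the members was -3.26, for C6 in dHEP chow mice, and the most positive 1.72, for Kng1 in FF alcohol mice. Fitted on the compared groups alone, 7 members were called in alcohol-fed dHEP mice and 12 in chow-fed dHEP mice, and 8 in alcohol-fed dHEP mice without tumor dHEP-518 or without non-tumor liver dHEP-520. After median-of-ratios scaling 3 members rose in dHEP alcohol, 3 in dHEP chow and 3 in FF chow mice. The 4 members that rose in all 4 combinations were thus not all called in these after scaling. Tumor and non-tumor values did not overlap for 11 members in dHEP alcohol mice (21.2% of all genes), 21 in FF alcohol (28.3%), 23 in dHEP chow (38.5%) and 20 in FF chow mice (46.3%). In the first 3 of these combinations tumor and non-tumor liver carry the same mouse numbers, and with the mouse as a block 12, 17 and 20 members were called in dHEP alcohol, FF alcohol and dHEP chow mice; block values are given below where a call changed. Without FF-158 and FF-168, 11 of the 20 members called in chow-fed FF mice were called, those lost being Mbl2, C8g, F7, F10, Serpinc1, Proc, Vtn, Itih1 and Itih2 (adjusted p 0.0586 to 0.146). Their log2 fold changes without both libraries were -1.54 for Mbl2, -0.49 for C8g, -0.38 for F7, -0.58 for F10, -0.66 for Serpinc1, -0.49 for Proc, -0.69 for Vtn, -0.54 for Itih1 and 0.71 for Itih2, each of the same sign as with them.

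**Figure D1:**
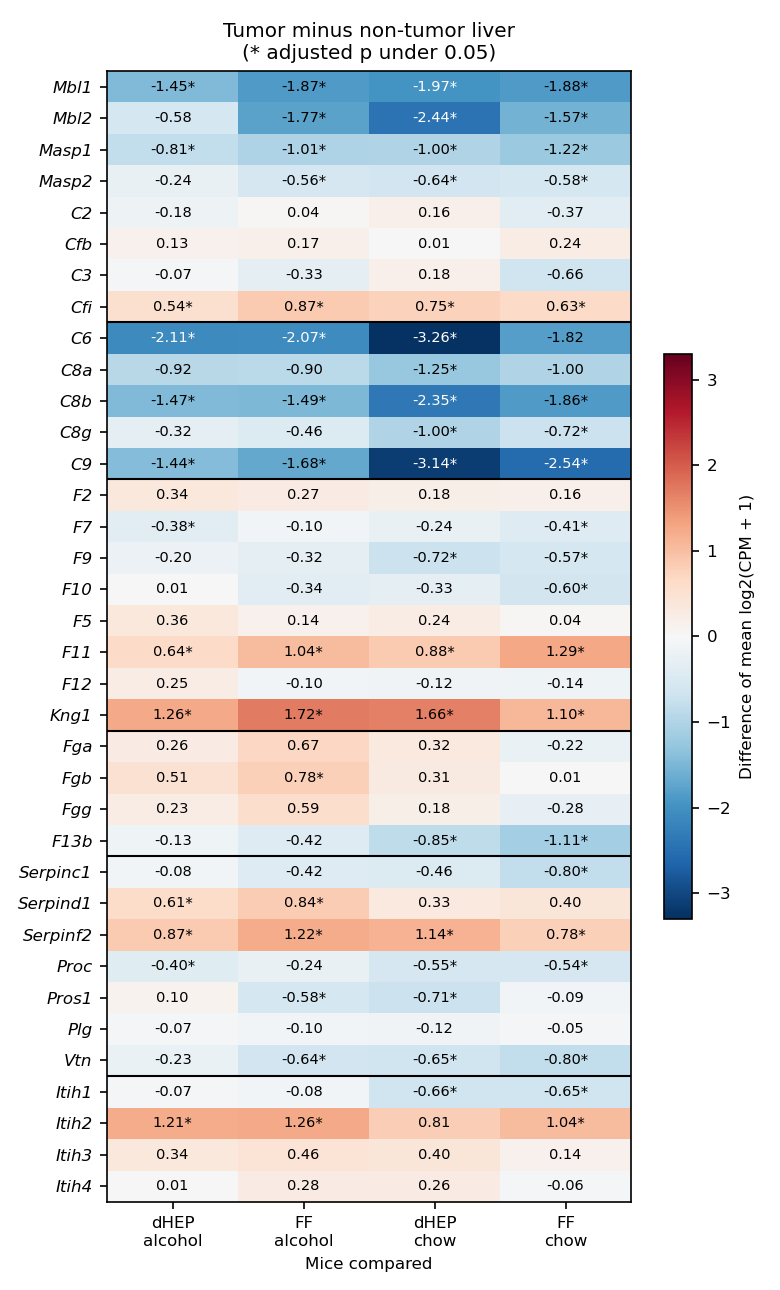
Difference of mean log2(CPM + 1) between tumor and non-tumor liver for the 36 members (rows, grouped by role) in the 4 genotype and diet combinations (columns); blue is lower and red higher in tumors, and stars mark an adjusted p under 0.05. C6, C8b and C9 were lower in every column, down to -3.26 for C6 in dHEP chow mice, and Kng1, F11, Cfi and Serpinf2 were higher in every column.

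The lectin pathway, which recognises sugars on microbes and dying cells, had its recognition molecule and proteases lower in tumors. Mbl1, a mouse mannose-binding lectin, fell in every combination. On alcohol, Mbl1 had 33.1, 57.7, 61.7 and 57.4 CPM in dHEP tumors against 119, 132, 146 and 172 CPM in dHEP non-tumor liver, and 35.2, 50.4, 31.1 and 44.1 CPM in FF tumors against 148, 129, 118 and 206 CPM in FF non-tumor liver. On chow, Mbl1 had 51.1, 37.4 and 39.4 CPM in dHEP tumors against 182, 171 and 152 CPM in dHEP non-tumor liver, and 38.5, 41.3 and 47.7 CPM in FF tumors against 156.7, 154.7 and 162 CPM in FF non-tumor liver. Every tumor lay below every non-tumor liver over all 28 libraries, the highest tumor at 61.7 CPM and the lowest non-tumor liver at 118 CPM. Tumors held 36.9% of the non-tumor mean in dHEP alcohol, 26.7% in FF alcohol, 25.3% in dHEP chow and 26.9% in FF chow mice. The log2 fold change (± SE) was -1.45 ± 0.19 in dHEP alcohol mice, -1.87 ± 0.19 in FF alcohol mice, -1.97 ± 0.22 in dHEP chow mice and -1.88 ± 0.22 in FF chow mice, with adjusted p between 1.10e-06 and 2.29e-05. Tumor dHEP-518 was the lowest of its group by a wide gap.

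Mbl2, the second mannose-binding lectin, was more variable between tumors. Mbl2 read 32.6, 115, 275 and 351 CPM in tumors of alcohol-fed dHEP mice, against 216, 229, 199.9 and 188 CPM in their non-tumor liver. Mbl2 in alcohol-fed FF mice read 39.7, 100.3, 46.2 and 135 CPM in tumors, against 191, 282, 248 and 262 CPM in non-tumor liver. In chow-fed mice Mbl2 read 25.7, 35.0 and 88.6 CPM in dHEP tumors, against 288, 207 and 227 CPM in dHEP non-tumor liver, and 65.6, 113 and 78.7 CPM in FF tumors, against 210.2, 351 and 211 CPM in FF non-tumor liver. Tumors lay below non-tumor liver without overlap in FF alcohol, dHEP chow and FF chow mice, while in dHEP alcohol mice tumors dHEP-518 and dHEP-520 lay below and dHEP-549 and dHEP-550 above the non-tumor livers. Mbl2 had a log2 fold change of -1.77 ± 0.50 in FF alcohol mice (adjusted p = 0.0122), -2.44 ± 0.58 in dHEP chow mice (adjusted p = 0.00326), -1.57 ± 0.58 in FF chow mice (adjusted p = 0.0439) and -0.58 ± 0.50 in dHEP alcohol mice (adjusted p = 0.456). Without tumor dHEP-518 that last value was 0.11 (adjusted p = 0.899). The Mbl2 call was lost in FF alcohol mice without tumor FF-503 (adjusted p = 0.0510) and in FF chow mice without any 1 of the 6 libraries (adjusted p up to 0.134).

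The lectin-associated proteases followed with smaller differences. Masp1, which activates Masp2 on the bound lectin, fell in all 4 combinations. With alcohol, Masp1 stood at 51.4, 64.5, 66.6 and 55.2 CPM in dHEP tumors and 100.3, 101, 106 and 110.4 CPM in dHEP non-tumor liver, and at 55.2, 56.4, 44.2 and 42.2 CPM in FF tumors and 123, 100.1, 84.0 and 95.2 CPM in FF non-tumor liver. With chow, Masp1 stood at 33.0, 48.8 and 102 CPM in dHEP tumors and 111, 109 and 112 CPM in dHEP non-tumor liver, and at 43.2, 47.3 and 65.2 CPM in FF tumors and 129, 121 and 111 CPM in FF non-tumor liver. The groups did not overlap in any combination, although the chow-fed dHEP tumors spread widely and dHEP-165 stood close under the non-tumor livers. Log2 fold changes were -0.81 ± 0.21 in dHEP alcohol mice, -1.01 ± 0.21 in FF alcohol mice, -1.004 ± 0.24 in dHEP chow mice and -1.22 ± 0.24 in FF chow mice (adjusted p 7.42e-04 to 0.00854).

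Masp2, the protease that cuts C4 and C2, fell in 3 combinations. On alcohol, Masp2 had 179, 172, 194 and 193 CPM in dHEP tumors against 239.5, 232, 194 and 210.3 CPM in dHEP non-tumor liver, and 132, 141, 169.4 and 149.8 CPM in FF tumors against 217, 237, 205 and 215 CPM in FF non-tumor liver. On chow, Masp2 had 126, 150.4 and 182 CPM in dHEP tumors against 238, 219.9 and 250.4 CPM in dHEP non-tumor liver, and 143, 139 and 164.9 CPM in FF tumors against 217, 220.2 and 231 CPM in FF non-tumor liver. No tumor reached the non-tumor livers of its own combination, although tumor dHEP-549 came level with its own non-tumor liver after rounding. Masp2 had a log2 fold change of -0.56 ± 0.11 in FF alcohol mice (adjusted p = 5.52e-04), -0.64 ± 0.12 in dHEP chow mice (adjusted p = 6.48e-04), -0.58 ± 0.12 in FF chow mice (adjusted p = 0.00138) and -0.24 ± 0.11 in dHEP alcohol mice (adjusted p = 0.115).

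Downstream of the lectins, the convertase genes did not pass the test in any combination, while the gene of the protease that shuts them off rose. Cfi, complement factor I, which cleaves C3b and C4b with cofactors, was higher in tumors. Cfi read 896, 703, 732 and 592 CPM in tumors of alcohol-fed dHEP mice, against 504, 502, 538 and 449.8 CPM in their non-tumor liver. Cfi in alcohol-fed FF mice read 835, 941, 1129 and 1041 CPM in tumors, against 446, 612, 570.2 and 529 CPM in non-tumor liver. In chow-fed mice Cfi read 842, 1074 and 899 CPM in dHEP tumors, against 603, 585 and 480.0 CPM in dHEP non-tumor liver, and 1058, 784 and 924 CPM in FF tumors, against 564, 654 and 559.7 CPM in FF non-tumor liver. Each tumor exceeded every non-tumor liver of its combination. On the log2 scale tumors differed by 0.54 ± 0.14 in dHEP alcohol mice, 0.87 ± 0.14 in FF alcohol mice, 0.75 ± 0.17 in dHEP chow mice and 0.63 ± 0.17 in FF chow mice, and the adjusted p lay between 1.28e-04 and 0.0106.

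C3, the central complement protein, overlapped between the tissues in every combination. With alcohol, C3 stood at 4422, 5323, 7746 and 8020.5 CPM in dHEP tumors and 6873, 6365, 7004 and 5771 CPM in dHEP non-tumor liver, and at 5322, 7760.4, 5699.9 and 5683 CPM in FF tumors and 7384, 8776, 6390.2 and 8070.1 CPM in FF non-tumor liver. On chow, C3 had 12351, 6146 and 8739 CPM in dHEP tumors against 8913, 7463 and 6906 CPM in dHEP non-tumor liver, and 5996, 9961 and 6519 CPM in FF tumors against 10396, 16628 and 8857 CPM in FF non-tumor liver. The non-tumor liver FF-158 was the highest library, and tumors FF-523 and dHEP-155 stood above the other tumors of their groups. Its log2 differences lay between -0.66 in FF chow and 0.18 in dHEP chow mice, with adjusted p of 0.122 or more.

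C2 and Cfb, neighbouring genes on chromosome 17 separated by 85 bp, encode the catalytic subunits of the classical or lectin and of the alternative C3 convertase. On alcohol, C2 had 119, 90.1, 111 and 95.4 CPM in dHEP tumors against 107, 119, 112 and 129.9 CPM in dHEP non-tumor liver, and 143, 117, 103 and 103 CPM in FF tumors against 99.5, 107, 98.2 and 150.1 CPM in FF non-tumor liver. With chow, C2 stood at 142, 107 and 145 CPM in dHEP tumors and 105, 116 and 129 CPM in dHEP non-tumor liver, and at 69.1, 81.3 and 124 CPM in FF tumors and 112, 108 and 125 CPM in FF non-tumor liver. Tumors and non-tumor livers overlapped in each combination for both genes. Cfb lay between 934 and 1587 CPM in the 14 tumors (median 1418) and between 934 and 1669 CPM in the 14 non-tumor livers (median 1194).

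**Figure D2:**
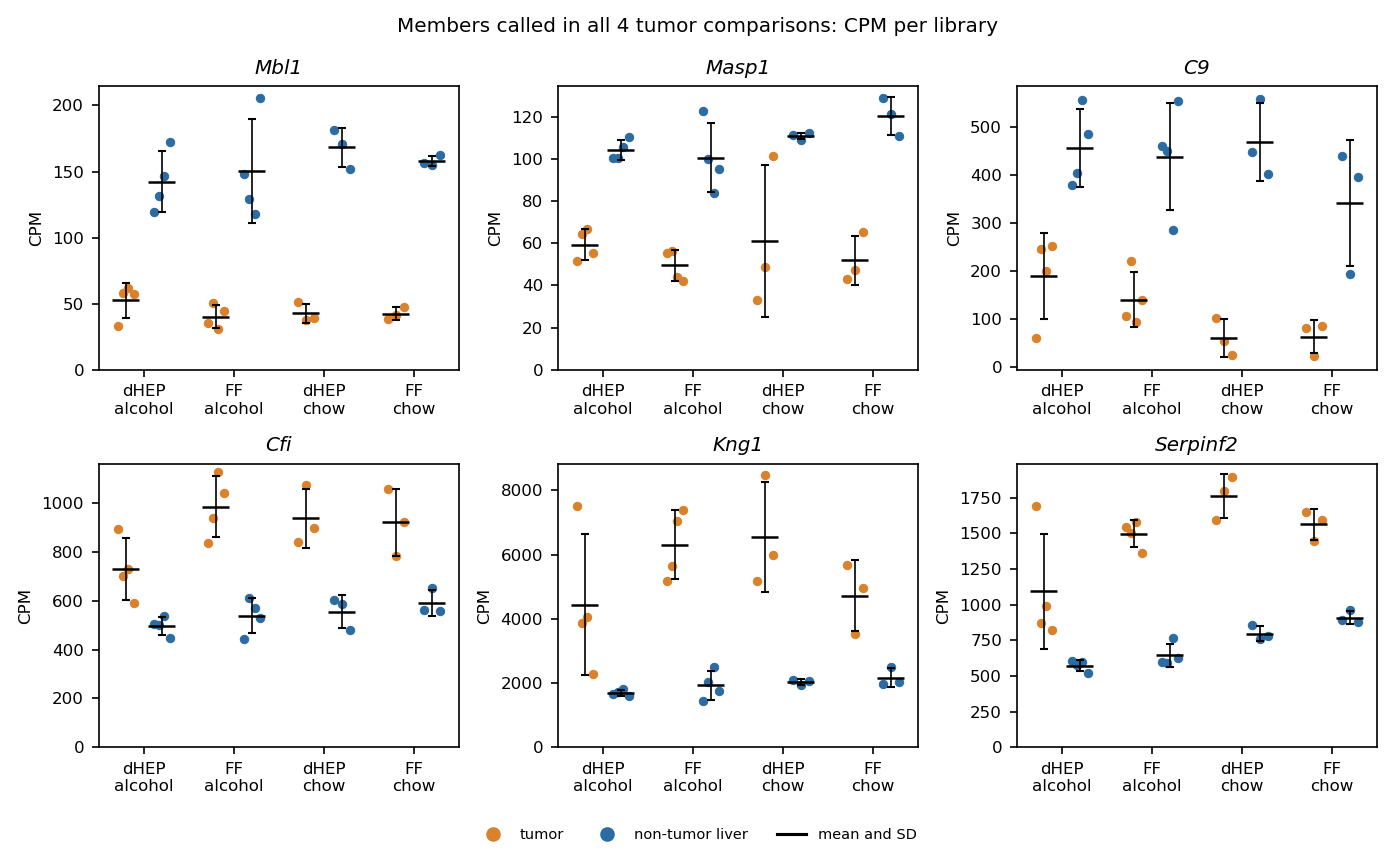
CPM per library for 6 members called in all 4 tumor comparisons, with tumors (orange) left of non-tumor liver (blue) in each genotype and diet combination; each point is 1 library, and black lines give the group mean and SD. Mbl1, Masp1 and C9 lie lower and Cfi, Kng1 and Serpinf2 higher in tumors, with no overlap inside any combination.

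The terminal complement genes, whose products form the membrane attack pore with C5 and C7, had lower means in tumors than in non-tumor liver. All 5 had lower means in tumors of every combination, and 3, 3, 5 and 3 of them fell in dHEP alcohol, FF alcohol, dHEP chow and FF chow mice, with medians of -1.44, -1.49, -2.35 and -1.82 on the log2 scale beside the medians over all genes given above. C9, which polymerises into the pore wall, fell in all 4 combinations. With alcohol, C9 stood at 59.3, 246, 200.3 and 252 CPM in dHEP tumors and 378, 403, 556 and 485 CPM in dHEP non-tumor liver, and at 106, 220.3, 92.8 and 139.8 CPM in FF tumors and 460.3, 450.4, 286 and 554 CPM in FF non-tumor liver. In chow-fed mice C9 read 103, 53.6 and 25.1 CPM in dHEP tumors, against 447, 558 and 401 CPM in dHEP non-tumor liver. For chow-fed FF mice C9 read 80.8, 23.7 and 84.7 CPM in tumors, against 438, 193 and 395 CPM in non-tumor liver. No tumor reached the non-tumor livers of its combination, and the chow-fed tumors were low in both genotypes. Tumors held 41.6%, 31.9%, 12.9% and 18.4% of the non-tumor mean in dHEP alcohol, FF alcohol, dHEP chow and FF chow mice. The log2 fold change (± SE) was -1.44 ± 0.45 in dHEP alcohol mice, -1.68 ± 0.45 in FF alcohol mice, -3.14 ± 0.52 in dHEP chow mice and -2.54 ± 0.52 in FF chow mice, with adjusted p between 1.37e-04 and 0.0257. The C9 call was lost in dHEP alcohol mice without any 1 of tumor dHEP-518 or non-tumor livers dHEP-549 and dHEP-550 (adjusted p up to 0.119).

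C6, which binds the C5b fragment to start pore assembly, spread over more than an order of magnitude among tumors. On alcohol, C6 had 37.3, 147, 222 and 12.6 CPM in dHEP tumors against 145, 212, 364 and 528 CPM in dHEP non-tumor liver, and 60.9, 87.2, 25.3 and 145 CPM in FF tumors against 288, 223, 186 and 534 CPM in FF non-tumor liver. On chow, C6 had 30.9, 90.6 and 16.3 CPM in dHEP tumors against 287, 451 and 342 CPM in dHEP non-tumor liver, and 59.6, 23.6 and 97.2 CPM in FF tumors against 279.8, 63.9 and 354 CPM in FF non-tumor liver. Tumors and non-tumor livers did not overlap in FF alcohol and dHEP chow mice and overlapped in the other combinations: in dHEP alcohol mice tumors dHEP-520 and dHEP-549 read within the non-tumor range, and in FF chow mice the non-tumor liver FF-158 read within the tumor range. C6 had a log2 fold change of -2.11 ± 0.74 in dHEP alcohol mice (adjusted p = 0.0445), -2.07 ± 0.74 in FF alcohol mice (adjusted p = 0.0428) and -3.26 ± 0.85 in dHEP chow mice (adjusted p = 0.00631). In FF chow mice the value was -1.82 ± 0.85 (adjusted p = 0.108), and -2.03 without FF-158 and FF-168 (adjusted p = 0.137). Without non-tumor liver FF-158 alone, C6 passed (-2.58, adjusted p = 0.0358). The C6 call was lost in dHEP alcohol mice without any 1 of tumors dHEP-518 and dHEP-550 or non-tumor livers dHEP-520, dHEP-549 and dHEP-550 (adjusted p up to 0.181) and in FF alcohol mice without any 1 of tumors FF-503, FF-523 and FF-581 or non-tumor livers FF-503, FF-523 and FF-595 (adjusted p up to 0.149).

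C8a and C8b, neighbouring genes on chromosome 4 separated by 11.13 kb, encode the alpha and beta chains of C8. C8b read 55.3, 46.0, 191 and 121 CPM in tumors of alcohol-fed dHEP mice, against 140.3, 208, 336 and 364 CPM in their non-tumor liver. C8b in alcohol-fed FF mice read 65.3, 62.8, 47.0 and 90.03 CPM in tumors, against 196, 103, 117 and 469 CPM in non-tumor liver. With chow, C8b stood at 35.5, 94.5 and 122 CPM in dHEP tumors and 313, 475 and 381 CPM in dHEP non-tumor liver, and at 34.5, 64.7 and 111 CPM in FF tumors and 295, 109 and 382 CPM in FF non-tumor liver. As for C6, overlap was seen in dHEP alcohol and FF chow mice and not in the other combinations. Log2 fold changes were -1.47 ± 0.52 in dHEP alcohol mice, -1.49 ± 0.52 in FF alcohol mice, -2.35 ± 0.59 in dHEP chow mice and -1.86 ± 0.59 in FF chow mice (adjusted p 0.00501 to 0.0452). The C8b call was lost in dHEP alcohol mice without any 1 of tumors dHEP-518 and dHEP-520 or non-tumor livers dHEP-520, dHEP-549 and dHEP-550 (adjusted p up to 0.151), in FF alcohol mice without any 1 of tumors FF-503, FF-523 and FF-581 or non-tumor livers FF-503 and FF-595 (adjusted p up to 0.164) and in FF chow mice without any 1 of tumor FF-167 or non-tumor livers FF-157 and FF-159 (adjusted p up to 0.112).

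C8a lay between 120.3 and 736 CPM in the 14 tumors (median 456) and between 347 and 1336 CPM in the 14 non-tumor livers (median 867). It fell in dHEP chow mice (-1.25 ± 0.46, adjusted p = 0.0459), while its values of -0.92 ± 0.40, -0.90 ± 0.40 and -0.998 ± 0.46 in dHEP alcohol, FF alcohol and FF chow mice did not pass (adjusted p 0.108, 0.107 and 0.106). With the animal number as a block C8a also passed in dHEP alcohol (adjusted p = 0.00892) and FF alcohol mice (adjusted p = 0.00789). In FF chow mice C8a passed without tumor FF-167 (-1.44, adjusted p = 0.0362) or without non-tumor liver FF-158 (-1.47, adjusted p = 0.0255). The C8a call was lost in dHEP chow mice without any 1 of tumors dHEP-155 and dHEP-165 or non-tumor livers dHEP-155, dHEP-164 and dHEP-165 (adjusted p up to 0.166). The ratio of C8b to C8a in CPM was 0.0561 to 0.538 in tumors (median 0.166) and 0.146 to 0.486 in non-tumor liver (median 0.330) and overlapped between the tissues.

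C8g, the lipocalin-like gamma chain, fell in both chow comparisons. On alcohol, C8g had 212, 138, 250.4 and 177 CPM in dHEP tumors against 250.2, 248, 236 and 214 CPM in dHEP non-tumor liver, and 179, 153, 179.6 and 133 CPM in FF tumors against 232, 230.3, 213 and 206 CPM in FF non-tumor liver. In chow-fed mice C8g read 108, 175 and 155.1 CPM in dHEP tumors, against 279, 278 and 309 CPM in dHEP non-tumor liver. For chow-fed FF mice C8g read 201, 117 and 178 CPM in tumors, against 254, 267 and 279 CPM in non-tumor liver. Its tissues overlapped in dHEP alcohol mice only. The log2 difference was -1.003 ± 0.20 in dHEP chow and -0.72 ± 0.20 in FF chow mice (adjusted p 6.68e-04 and 0.00842), and -0.32 ± 0.17 and -0.46 ± 0.17 in dHEP and FF mice on alcohol (adjusted p 0.200 and 0.0533; 0.0488 in FF with the animal block). The C8g call was lost in FF chow mice without tumor FF-168 (adjusted p = 0.0749).

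FF-158 and FF-168, high in A1bg, were also low for several terminal genes. FF-158 was the lowest of the FF chow non-tumor livers for C6, C8a, C8b and C9 and in the middle for C8g. FF-168 was the lowest of the FF chow tumors for C6, C8a, C8g and C9 and in the middle for C8b. Without both libraries the value of C9 was -2.32 (adjusted p = 0.00603) and that of C8b -2.42 (adjusted p = 0.0172) in FF chow mice. The 7 male-biased liver genes of the marker list also had lower means in tumors of every combination, with 3 to 5 of them called and medians of -3.67, -2.80, -2.82 and -2.66 on the log2 scale in dHEP alcohol, FF alcohol, dHEP chow and FF chow mice. The 7 female-biased genes had higher median sums in tumors of every combination. In the same order these were 281 against 32.2, 370 against 136, 413 against 10.5 and 178 against 63.5 CPM. Their sums overlapped between the tissues in dHEP alcohol and FF chow mice. Whether the sex-biased programme has a part in the lower terminal genes of tumors was not tested.

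**Figure D3:**
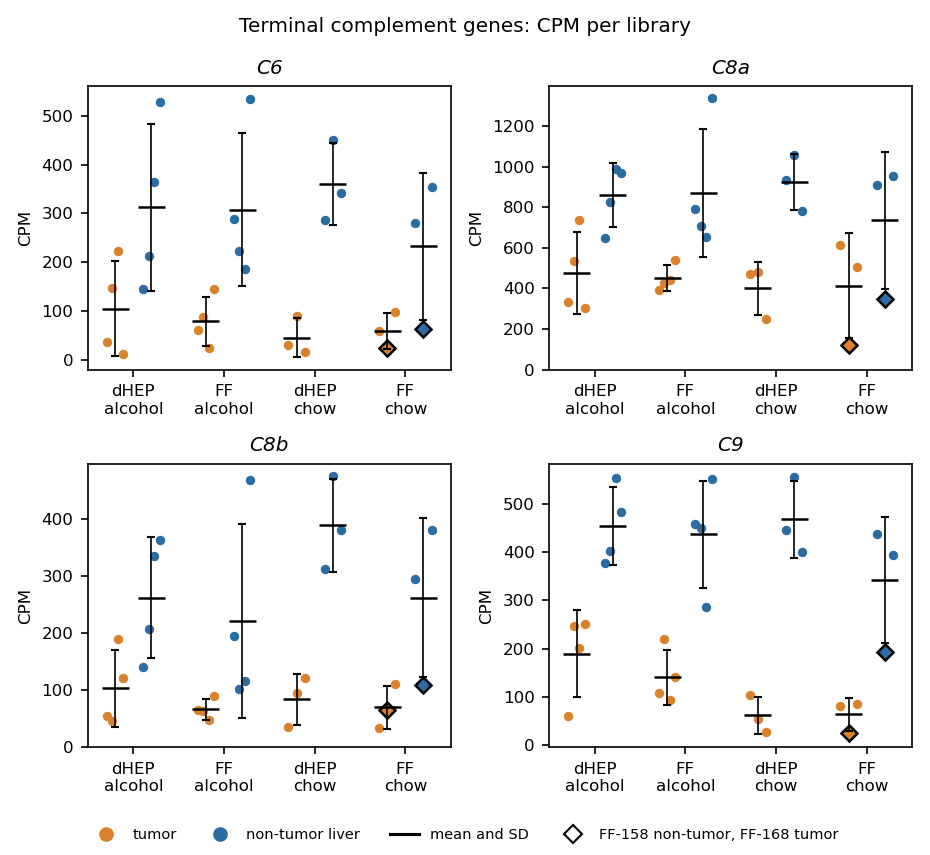
CPM per library for C6, C8a, C8b and C9, with tumors (orange) left of non-tumor liver (blue) in each genotype and diet combination; black lines give the mean and SD, and diamonds mark FF-158 (non-tumor) and FF-168 (tumor). Group means are lower in tumors in every combination, and FF-158 is the lowest FF chow non-tumor liver in all 4 panels.

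Among the coagulation factors F11 and Kng1, which take part in the contact start of clotting, rose in tumors, while the vitamin K dependent factors F7, F9 and F10 fell in 1 or 2 combinations and F2, F5 and F12 did not pass. F11, factor XI, a protease activated by factor XIIa and thrombin, rose in all 4 combinations. F11 read 80.3, 63.1, 55.2 and 42.1 CPM in tumors of alcohol-fed dHEP mice, against 30.9, 34.0, 43.7 and 41.3 CPM in their non-tumor liver. F11 in alcohol-fed FF mice read 72.2, 86.8, 47.0 and 79.1 CPM in tumors, against 42.0, 25.4, 42.8 and 26.7 CPM in non-tumor liver. On chow, F11 had 98.4, 146 and 119 CPM in dHEP tumors against 55.6, 67.9 and 71.7 CPM in dHEP non-tumor liver, and 141, 148 and 105 CPM in FF tumors against 59.2, 36.7 and 66.6 CPM in FF non-tumor liver. The tissues overlapped in dHEP alcohol mice and in no other combination. On the log2 scale tumors differed by 0.64 ± 0.23 in dHEP alcohol mice, 1.04 ± 0.23 in FF alcohol mice, 0.88 ± 0.26 in dHEP chow mice and 1.29 ± 0.26 in FF chow mice, and the adjusted p lay between 8.92e-04 and 0.0468. With the animal block the dHEP alcohol value did not pass (adjusted p = 0.0919). The F11 call was lost in dHEP alcohol mice without any 1 of tumors dHEP-518, dHEP-520 and dHEP-549 or non-tumor livers dHEP-518, dHEP-520 and dHEP-550 (adjusted p up to 0.152) and in dHEP chow mice without any 1 of tumor dHEP-164 or non-tumor liver dHEP-155 (adjusted p up to 0.0662).

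Kng1, kininogen, the cofactor of contact activation and precursor of bradykinin, rose in all 4. With alcohol, Kng1 stood at 7515, 3867, 4073 and 2298 CPM in dHEP tumors and 1654, 1711, 1801 and 1605 CPM in dHEP non-tumor liver, and at 5170.4, 5641, 7035 and 7387 CPM in FF tumors and 1441, 2029, 2487 and 1760.5 CPM in FF non-tumor liver. With chow, Kng1 stood at 5172, 8483 and 5992 CPM in dHEP tumors and 2100.0, 1942 and 2058 CPM in dHEP non-tumor liver, and at 5687, 3521 and 4959 CPM in FF tumors and 1968, 2507 and 2033 CPM in FF non-tumor liver. All 14 tumors but dHEP-550 lay above every non-tumor liver of the series, and none overlapped within a combination. The log2 fold change (± SE) was 1.26 ± 0.27 in dHEP alcohol mice, 1.72 ± 0.27 in FF alcohol mice, 1.66 ± 0.31 in dHEP chow mice and 1.10 ± 0.31 in FF chow mice, with adjusted p between 6.00e-05 and 0.00910. Kng1 has a near-identical neighbour, Kng2, between which reads can be split, so the single value is uncertain. The sum of the 2 genes was 2678 to 9172 CPM in tumors and 1624 to 2793 CPM in non-tumor liver.

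F9, factor IX, and F7, factor VII, are vitamin K dependent proteases of the intrinsic and the tissue factor pathway. F9 read 144, 157.3, 202 and 166 CPM in tumors of alcohol-fed dHEP mice, against 204, 207, 182 and 171 CPM in their non-tumor liver. F9 in alcohol-fed FF mice read 127, 178, 142 and 163 CPM in tumors, against 176, 223, 166.6 and 196 CPM in non-tumor liver. In chow-fed mice F9 read 112, 119.5 and 97.5 CPM in dHEP tumors, against 191, 182 and 169.9 CPM in dHEP non-tumor liver, and 141, 127 and 124 CPM in FF tumors, against 197, 191 and 195 CPM in FF non-tumor liver. On chow every tumor lay below every non-tumor liver, and on alcohol the tissues overlapped. F9 had a log2 fold change of -0.72 ± 0.14 in dHEP chow mice (adjusted p = 5.54e-04), -0.57 ± 0.14 in FF chow mice (adjusted p = 0.00348), -0.20 ± 0.12 in dHEP alcohol mice (adjusted p = 0.268) and -0.32 ± 0.12 in FF alcohol mice (adjusted p = 0.0544).

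With alcohol, F7 stood at 51.3, 38.8, 49.99 and 42.9 CPM in dHEP tumors and 67.2, 63.7, 56.7 and 51.7 CPM in dHEP non-tumor liver, and at 55.7, 44.5, 54.0 and 43.5 CPM in FF tumors and 55.9, 48.2, 47.9 and 59.4 CPM in FF non-tumor liver. On chow, F7 had 58.2, 66.4 and 55.1 CPM in dHEP tumors against 71.0, 68.1 and 73.0 CPM in dHEP non-tumor liver, and 50.2, 58.0 and 59.0 CPM in FF tumors against 69.5, 81.7 and 72.4 CPM in FF non-tumor liver. Tumors stood below non-tumor liver without overlap in all but the FF alcohol mice. F7 had a log2 fold change of -0.38 ± 0.12 in dHEP alcohol mice (adjusted p = 0.0217), -0.41 ± 0.13 in FF chow mice (adjusted p = 0.0225), -0.10 ± 0.12 in FF alcohol mice (adjusted p = 0.600) and -0.24 ± 0.13 in dHEP chow mice (adjusted p = 0.190). The F7 call was lost in dHEP alcohol mice without any 1 of tumors dHEP-520 and dHEP-550 or non-tumor livers dHEP-518 and dHEP-520 (adjusted p up to 0.0844) and in FF chow mice without any 1 of tumor FF-167 or non-tumor liver FF-158 (adjusted p up to 0.102).

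F10, factor X, which forms prothrombinase with factor V, lies 1498 bp from F7 on chromosome 8. On alcohol, F10 had 284, 182, 402 and 367 CPM in dHEP tumors against 309, 293, 307 and 268 CPM in dHEP non-tumor liver, and 207, 192, 286 and 216 CPM in FF tumors against 294, 262, 273 and 304 CPM in FF non-tumor liver. With chow, F10 stood at 252, 287 and 321 CPM in dHEP tumors and 359.6, 346 and 369 CPM in dHEP non-tumor liver, and at 218, 257 and 278 CPM in FF tumors and 369, 404 and 367 CPM in FF non-tumor liver. The chow tissues did not overlap, and the alcohol tissues did. It fell in FF chow mice (-0.60 ± 0.20, adjusted p = 0.0236) and its other values lay between -0.34 and 0.01. The F10 call was lost in FF chow mice without any 1 of tumor FF-167 or non-tumor livers FF-157, FF-158 and FF-159 (adjusted p up to 0.102).

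F12, factor XII, which starts the contact pathway, did not pass in any combination. F12 read 335, 385, 434 and 395 CPM in tumors of alcohol-fed dHEP mice, against 304, 359, 312 and 322 CPM in their non-tumor liver. F12 in alcohol-fed FF mice read 282, 303, 386 and 367 CPM in tumors, against 309, 361, 394 and 366 CPM in non-tumor liver. In chow-fed mice F12 read 268, 346 and 368 CPM in dHEP tumors, against 343, 355 and 356 CPM in dHEP non-tumor liver, and 433, 244 and 495 CPM in FF tumors, against 397, 449 and 398 CPM in FF non-tumor liver. Its tissues overlapped throughout. F2, prothrombin, lay between 1193 and 2327 CPM in the 14 tumors (median 1724) and between 1230.0 and 1748 CPM in the 14 non-tumor livers (median 1424). F5, the factor V cofactor, lay between 941 and 1601 CPM in the 14 tumors (median 1169) and between 885 and 1199 CPM in the 14 non-tumor livers (median 997). Neither gene passed in any combination, though F2 was higher in FF alcohol tumors without overlap.

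The 3 fibrinogen chain genes lie together on chromosome 3 of GRCm38 (Fgg, then Fga 11.026 kb and Fgb a further 6.513 kb on). Fibrinogen is assembled from equal numbers of alpha, beta and gamma chains, and the genes are acute-phase genes of hepatocytes. The 3 genes moved together between most libraries, with the exception of Fgb between tumors dHEP-164 and dHEP-165. The windows around their starts are shown for this reason, from RefSeq on GRCm38.p6, each with 250 bases before and 50 bases after the start and read along the gene's own strand: Fga at chr3:83025903-83026202 (plus strand), Fgb at chr3:83049814-83050113 (minus strand) and Fgg at chr3:83007474-83007773 (plus strand). Capitals mark matches, on either strand, to a core of the interleukin-6 response element (CTGGGAA), a half-site of the factor HNF1 (GTTAAT) and a C/EBP motif (TTGCNNAA); none of the matches overlap.
Fga: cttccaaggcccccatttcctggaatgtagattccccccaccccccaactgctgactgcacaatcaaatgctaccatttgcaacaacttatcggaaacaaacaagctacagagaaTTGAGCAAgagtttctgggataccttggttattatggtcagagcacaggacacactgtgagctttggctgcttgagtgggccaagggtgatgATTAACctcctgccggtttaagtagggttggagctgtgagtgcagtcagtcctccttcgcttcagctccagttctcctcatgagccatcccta
Fgb: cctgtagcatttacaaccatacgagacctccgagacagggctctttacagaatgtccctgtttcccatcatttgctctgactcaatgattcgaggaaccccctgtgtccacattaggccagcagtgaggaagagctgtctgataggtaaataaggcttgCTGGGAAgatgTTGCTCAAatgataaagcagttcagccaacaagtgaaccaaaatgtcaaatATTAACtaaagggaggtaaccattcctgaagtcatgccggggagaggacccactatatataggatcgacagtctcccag
Fgg: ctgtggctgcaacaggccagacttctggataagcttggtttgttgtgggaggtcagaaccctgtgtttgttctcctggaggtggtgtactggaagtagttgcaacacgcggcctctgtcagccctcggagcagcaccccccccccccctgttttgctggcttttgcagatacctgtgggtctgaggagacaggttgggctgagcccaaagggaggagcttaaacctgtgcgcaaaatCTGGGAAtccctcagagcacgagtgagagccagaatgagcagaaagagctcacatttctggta

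CTGGGAA was found in the Fgb and Fgg windows, GTTAAT in those of Fga and Fgb, and TTGCNNAA in those of Fga and Fgb. Of 32851 windows of the same length, 11.1% held CTGGGAA, 7.10% GTTAAT and 10.8% TTGCNNAA, and of the 29 members with a window 6, 8 and 8 held them. A match describes the letters and is no evidence of binding.

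With alcohol, Fga stood at 5781, 3781, 5706 and 2742 CPM in dHEP tumors and 3126, 3513, 4009 and 3775 CPM in dHEP non-tumor liver, and at 5973, 6239, 7711 and 8349 CPM in FF tumors and 3541, 3599, 3831 and 7599 CPM in FF non-tumor liver. With chow, Fga stood at 9113, 6639.7 and 5039 CPM in dHEP tumors and 5613, 6108 and 4541 CPM in dHEP non-tumor liver, and at 6954, 3403 and 6672 CPM in FF tumors and 6393, 6374 and 6129 CPM in FF non-tumor liver. Non-tumor FF-595 stood far above the other alcohol-fed non-tumor livers, and tumors and non-tumor livers overlapped in every combination. On alcohol, Fgg had 3726, 2529.5, 3765 and 1791 CPM in dHEP tumors against 2165, 2387, 2644 and 2439.9 CPM in dHEP non-tumor liver, and 3813, 4004, 4753 and 5225 CPM in FF tumors against 2365, 2426, 2540.3 and 5035 CPM in FF non-tumor liver. On chow, Fgg had 5248, 4035 and 3199 CPM in dHEP tumors against 3852, 4014 and 2989.6 CPM in dHEP non-tumor liver, and 4088, 2312 and 4084 CPM in FF tumors against 4057, 4158 and 4104 CPM in FF non-tumor liver. The same libraries were high and low for both chains. Fga and Fgg did not pass in any combination, with log2 differences between -0.22 and 0.67 for Fga and between -0.28 and 0.59 for Fgg. In FF alcohol mice both passed without non-tumor liver FF-595 (0.94 for Fga, adjusted p = 0.0230, and 0.85 for Fgg, adjusted p = 0.0200). Without FF-158 and FF-168 the FF chow values were 0.12 for Fga and 0.002 for Fgg.

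Fgb lay between 2982 and 8040.0 CPM in the 14 tumors (median 5807) and between 2627 and 6599 CPM in the 14 non-tumor livers (median 3719.5). It rose in FF alcohol mice (0.78 ± 0.28, adjusted p = 0.0481), where Fga and Fgg had 0.67 ± 0.29 (adjusted p = 0.1003) and 0.59 ± 0.27 (adjusted p = 0.111). The Fgb call did not hold with the animal block (adjusted p = 0.0558). The Fgb call was lost in FF alcohol mice without any 1 of tumors FF-523, FF-581 and FF-595 or non-tumor livers FF-503, FF-523 and FF-581 (adjusted p up to 0.155). The CPM ratio of Fgb to Fga was 0.677 to 1.09 in tumors (median 0.964) and 0.795 to 0.927 in non-tumor liver (median 0.846), and that of Fgg to Fga was 0.576 to 0.680 in tumors (median 0.637) and 0.635 to 0.693 in non-tumor liver (median 0.663). These ratios are of CPM and not per length. The fibrinogen sum reached 22399 CPM in tumor dHEP-155 and was lowest, at 7515 CPM, in tumor dHEP-550.

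**Figure D4:**
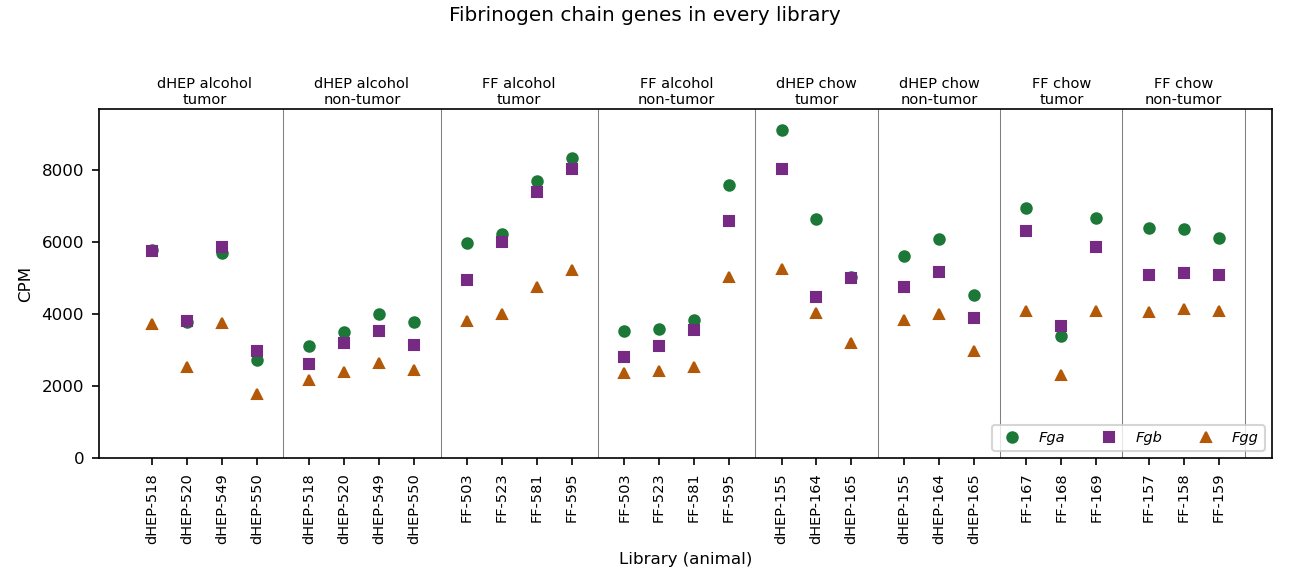
CPM of Fga, Fgb and Fgg in each of the 28 libraries, grouped by genotype, diet and tissue with tumors left of their non-tumor livers. The 3 symbols mostly move together from library to library (Fgb does not between tumors dHEP-164 and dHEP-165), and FF-595 stands above the other alcohol-fed non-tumor livers for all 3 genes.

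F13b, the carrier subunit of factor XIII, which cross-links fibrin, fell on chow. F13b read 155.1, 157.995, 176 and 157.1 CPM in tumors of alcohol-fed dHEP mice, against 186, 189, 179 and 154.6 CPM in their non-tumor liver. F13b in alcohol-fed FF mice read 106, 108, 131 and 123 CPM in tumors, against 158.002, 166, 152 and 149.98 CPM in non-tumor liver. On chow, F13b had 66.0, 128 and 159.7 CPM in dHEP tumors against 191, 195 and 214 CPM in dHEP non-tumor liver, and 125, 59.4 and 104 CPM in FF tumors against 177, 218 and 207 CPM in FF non-tumor liver. Tumors lay below non-tumor liver without overlap in all but the dHEP alcohol mice. The log2 difference was -0.85 ± 0.23 in dHEP chow and -1.11 ± 0.23 in FF chow mice (adjusted p 0.00820 and 9.82e-04), and -0.13 ± 0.20 and -0.42 ± 0.20 in dHEP and FF mice on alcohol (adjusted p 0.703 and 0.129). The F13b call was lost in dHEP chow mice without tumor dHEP-155 (adjusted p = 0.0960).

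The inhibitors split: the genes of antiplasmin and heparin cofactor II rose in tumors of 4 and 2 combinations, and those of protein C, protein S and antithrombin fell in 1 to 3. The gene of the adhesion protein vitronectin fell in 3. Serpinf2, alpha-2-antiplasmin, the main inhibitor of plasmin, rose in all 4 combinations. On alcohol, Serpinf2 had 1692, 869, 989 and 823 CPM in dHEP tumors against 602, 576, 596 and 519 CPM in dHEP non-tumor liver, and 1546, 1505, 1583 and 1363 CPM in FF tumors against 597, 592, 764 and 625 CPM in FF non-tumor liver. In chow-fed mice Serpinf2 read 1595, 1801 and 1899 CPM in dHEP tumors, against 858, 758 and 778 CPM in dHEP non-tumor liver. For chow-fed FF mice Serpinf2 read 1648, 1445 and 1596 CPM in tumors, against 892, 961 and 876 CPM in non-tumor liver. No tumor overlapped the non-tumor livers of its combination, and tumor dHEP-518 stood above the other alcohol-fed dHEP tumors. Tumors held 191%, 233%, 221% and 172% of the non-tumor mean in dHEP alcohol, FF alcohol, dHEP chow and FF chow mice. Log2 fold changes were 0.87 ± 0.16 in dHEP alcohol mice, 1.22 ± 0.16 in FF alcohol mice, 1.14 ± 0.19 in dHEP chow mice and 0.78 ± 0.19 in FF chow mice (adjusted p 1.29e-05 to 0.00352).

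Serpind1, heparin cofactor II, a thrombin inhibitor, rose on alcohol. Serpind1 read 871, 548, 645 and 679 CPM in tumors of alcohol-fed dHEP mice, against 451, 459, 451 and 408 CPM in their non-tumor liver. Serpind1 in alcohol-fed FF mice read 852, 846, 748 and 718 CPM in tumors, against 432, 411, 519 and 412 CPM in non-tumor liver. With chow, Serpind1 stood at 440.3, 1002 and 694 CPM in dHEP tumors and 528, 538 and 548.8 CPM in dHEP non-tumor liver, and at 699.9, 844 and 792 CPM in FF tumors and 568, 618 and 581.4 CPM in FF non-tumor liver. The tissues overlapped in dHEP chow mice alone. It rose by 0.61 ± 0.17 in dHEP and 0.84 ± 0.17 in FF mice on alcohol (log2, adjusted p 0.0140 and 0.00100), and its chow values were 0.33 ± 0.20 in dHEP and 0.40 ± 0.20 in FF mice (adjusted p 0.233 and 0.133). In dHEP chow mice Serpind1 passed without tumor dHEP-155 (0.63, adjusted p = 0.0137). The Serpind1 call was lost in dHEP alcohol mice without tumor dHEP-518 (adjusted p = 0.0560).

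Proc, the gene of protein C, which inactivates factors Va and VIIIa, fell in 3 combinations. With alcohol, Proc stood at 247, 201, 265 and 246 CPM in dHEP tumors and 325, 336, 305 and 299 CPM in dHEP non-tumor liver, and at 256, 253, 244 and 192 CPM in FF tumors and 286, 266, 275 and 285 CPM in FF non-tumor liver. On chow, Proc had 176, 248 and 293 CPM in dHEP tumors against 309, 364 and 355 CPM in dHEP non-tumor liver, and 245, 216 and 241 CPM in FF tumors against 345, 340.4 and 338 CPM in FF non-tumor liver. Each tumor read below every non-tumor liver of its combination, in FF alcohol mice too, where the test was not passed. On the log2 scale tumors differed by -0.40 ± 0.13 in dHEP alcohol mice, -0.24 ± 0.13 in FF alcohol mice, -0.55 ± 0.15 in dHEP chow mice and -0.54 ± 0.15 in FF chow mice, and the adjusted p lay between 0.00756 and 0.175. With the animal block the dHEP alcohol value did not pass (adjusted p just above the threshold). The Proc call was lost in dHEP alcohol mice without any 1 of tumor dHEP-520 or non-tumor livers dHEP-518 and dHEP-520 (adjusted p up to 0.101) and in dHEP chow mice without tumor dHEP-155 (adjusted p = 0.0856).

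Pros1, protein S, the cofactor of protein C, was uneven between combinations. On alcohol, Pros1 had 60.0, 84.1, 74.9 and 121 CPM in dHEP tumors against 68.6, 79.8, 80.5 and 77.9 CPM in dHEP non-tumor liver, and 52.1, 73.4, 43.6 and 65.2 CPM in FF tumors against 73.6, 109.9, 79.6 and 85.8 CPM in FF non-tumor liver. In chow-fed mice Pros1 read 60.6, 47.9 and 36.7 CPM in dHEP tumors, against 83.9, 78.8 and 73.1 CPM in dHEP non-tumor liver. For chow-fed FF mice Pros1 read 54.4, 105 and 57.3 CPM in tumors, against 70.3, 81.7 and 68.4 CPM in non-tumor liver. Tumors lay below non-tumor liver without overlap in FF alcohol and dHEP chow mice, and overlapped it in the others. Pros1 had a log2 fold change of -0.58 ± 0.21 in FF alcohol mice (adjusted p = 0.0473), -0.71 ± 0.24 in dHEP chow mice (adjusted p = 0.0309), 0.10 ± 0.21 in dHEP alcohol mice (adjusted p = 0.780) and -0.09 ± 0.24 in FF chow mice (adjusted p = 0.822). The Pros1 call was lost in FF alcohol mice without any 1 of tumors FF-503, FF-581 and FF-595 or non-tumor livers FF-523, FF-581 and FF-595 (adjusted p up to 0.161) and in dHEP chow mice without any 1 of tumors dHEP-164 and dHEP-165 or non-tumor livers dHEP-155, dHEP-164 and dHEP-165 (adjusted p up to 0.131).

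Serpinc1, antithrombin, lay between 691 and 2156 CPM in the 14 tumors (median 1111) and between 1329 and 2221 CPM in the 14 non-tumor livers (median 1491). It fell in FF chow mice (-0.80 ± 0.26, adjusted p = 0.0215). The Serpinc1 call was lost in FF chow mice without any 1 of tumors FF-167 and FF-168 or non-tumor liver FF-158 (adjusted p up to 0.0821). Vtn, vitronectin, an adhesion protein that also guards cells from the complement pore, lay between 964 and 1947 CPM in the 14 tumors (median 1193) and between 1531 and 2126 CPM in the 14 non-tumor livers (median 1896). Vtn had a log2 fold change of -0.64 ± 0.18 in FF alcohol mice (adjusted p = 0.0115), -0.65 ± 0.21 in dHEP chow mice (adjusted p = 0.0222), -0.80 ± 0.21 in FF chow mice (adjusted p = 0.00602) and -0.23 ± 0.18 in dHEP alcohol mice (adjusted p = 0.412). The Vtn call was lost in dHEP chow mice without any 1 of tumor dHEP-155 or non-tumor livers dHEP-155 and dHEP-164 (adjusted p up to 0.152).

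Plg, plasminogen, the precursor of the clot-dissolving plasmin, did not pass in any combination. With alcohol, Plg stood at 1411, 1148, 1817 and 1642 CPM in dHEP tumors and 1553, 1536, 1703 and 1435 CPM in dHEP non-tumor liver, and at 1387, 1344, 1562 and 1433 CPM in FF tumors and 1577, 1348, 1467 and 1761 CPM in FF non-tumor liver. With chow, Plg stood at 1571, 1809 and 1816 CPM in dHEP tumors and 1949, 1886 and 1818 CPM in dHEP non-tumor liver, and at 1901, 2108 and 1811 CPM in FF tumors and 2136, 1909 and 1970.2 CPM in FF non-tumor liver. Its tissues overlapped except in dHEP chow mice, and its log2 differences lay between -0.12 and -0.05.

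The inter-alpha-trypsin heavy chains, plasma proteins that bind hyaluronan, did not move together, although Itih1, Itih3 and Itih4 lie within one stretch of chromosome 14. Itih2, on chromosome 2, rose in 3 combinations. On alcohol, Itih2 had 2287, 1590.1, 1651 and 3459 CPM in dHEP tumors against 876, 889, 1028 and 899 CPM in dHEP non-tumor liver, and 2667, 2137, 2195 and 1952 CPM in FF tumors against 796, 899, 1204 and 868 CPM in FF non-tumor liver. On chow, Itih2 had 1623, 2299.7 and 2827 CPM in dHEP tumors against 1316, 1249.7 and 1192 CPM in dHEP non-tumor liver, and 2155, 5386 and 1791 CPM in FF tumors against 1155, 1663 and 1255 CPM in FF non-tumor liver. Tumors lay above non-tumor liver without overlap in every combination, and the chow-fed FF tumor FF-168 was the highest library. It rose by 1.21 ± 0.27 in dHEP alcohol, 1.26 ± 0.27 in FF alcohol and 1.04 ± 0.32 in FF chow mice (log2, adjusted p 0.00309, 0.00166 and 0.0160), and differed by 0.81 ± 0.32 in dHEP chow mice (adjusted p = 0.0596, and 0.0453 with the animal block; 1.03 without tumor dHEP-155, adjusted p = 0.0419). The Itih2 call was lost in FF chow mice without any 1 of tumor FF-168 or non-tumor livers FF-157 and FF-159 (adjusted p up to 0.158).

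Itih1 fell in the tumors of chow-fed mice. Itih1 read 527, 368, 593 and 667 CPM in tumors of alcohol-fed dHEP mice, against 517, 575, 589.7 and 533 CPM in their non-tumor liver. Itih1 in alcohol-fed FF mice read 519, 555, 519.8 and 453 CPM in tumors, against 556, 520.2, 535 and 552 CPM in non-tumor liver. In chow-fed mice Itih1 read 359, 685 and 542 CPM in dHEP tumors, against 846, 840.5 and 741 CPM in dHEP non-tumor liver, and 526, 479 and 533 CPM in FF tumors, against 740.1, 871 and 801 CPM in FF non-tumor liver. On chow the tissues did not overlap, and on alcohol the tumors were spread around the non-tumor values. Itih1 had a log2 fold change of -0.66 ± 0.19 in dHEP chow mice (adjusted p = 0.0118), -0.65 ± 0.19 in FF chow mice (adjusted p = 0.0125), -0.07 ± 0.16 in dHEP alcohol mice (adjusted p = 0.811) and -0.08 ± 0.16 in FF alcohol mice (adjusted p = 0.766). The Itih1 call was lost in dHEP chow mice without tumor dHEP-155 (adjusted p = 0.126).

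With alcohol, Itih3 stood at 1252, 838, 1259 and 1068 CPM in dHEP tumors and 646, 779, 1244 and 882 CPM in dHEP non-tumor liver, and at 1119, 1930.3, 1122 and 1494 CPM in FF tumors and 794, 1046, 820.2 and 1494 CPM in FF non-tumor liver. With chow, Itih3 stood at 2111, 1221 and 1241 CPM in dHEP tumors and 1249, 1231 and 900.4 CPM in dHEP non-tumor liver, and at 1219, 1900.0 and 1209 CPM in FF tumors and 1244, 1477 and 1151 CPM in FF non-tumor liver. Its tissues overlapped in each combination. On alcohol, Itih4 had 2710.4, 1874, 2652 and 2390.2 CPM in dHEP tumors against 2044, 2338, 2950.1 and 2206 CPM in dHEP non-tumor liver, and 3456, 4567, 3360.4 and 2782 CPM in FF tumors against 1998, 3253, 2290.0 and 4596 CPM in FF non-tumor liver. On chow, Itih4 had 4321, 2419 and 2669 CPM in dHEP tumors against 3242, 2587 and 1922 CPM in dHEP non-tumor liver, and 2666, 3985 and 2044 CPM in FF tumors against 2861, 3507 and 2460.0 CPM in FF non-tumor liver. Itih4, an acute-phase gene, overlapped likewise, and neither gene passed in any combination.

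Whether the tumor difference itself differed between genotypes or diets was tested as an interaction, and none of the 36 members was called in any of the 4 tissue interactions, nor was any other gene (limma, 0% of all tested genes). At an unadjusted p under 0.05, 8 members had a higher diet-by-tissue term in dHEP mice (Itih1, C8g, C9, Pros1, Mbl2, F13b, Masp2 and F9; 3.1% of all genes) and 3 in FF mice (Itih1, F13b and Fgg; 0.629%). None had a lower one, against 3.33% of all genes in dHEP and 5.3% in FF mice. These are genes whose tumor difference was less negative or more positive on alcohol than on chow: C9 had -1.44 on alcohol and -3.14 on chow in dHEP mice (interaction 1.69 ± 0.69, limma adjusted p = 0.758). For the genotype-by-tissue term the unadjusted count was 2 on alcohol (Pros1 and Masp2, both higher; 1.23%) and 0 on chow.

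Other genes of the same pathways were read beside the members, from lists chosen by cell of origin. Of 12 further complement genes of hepatocytes, 0 rose and 3 fell in dHEP alcohol, 1 rose and 4 fell in FF alcohol, 1 rose and 3 fell in dHEP chow and 0 rose and 2 fell in FF chow tumors. Cpn2, a subunit of the peptidase that inactivates C3a and C5a, fell in all 4 (log2 -0.48, -0.46, -0.61 and -0.72), and Colec11, a lectin-pathway collectin, in 3. Of 14 complement genes of other cells, 4, 5, 4 and 2 fell and 1, 0, 0 and 1 rose in the same order, with Colec10, a collectin, lower in all 4 (-1.98, -1.58, -2.31 and -1.58). Of 10 tested coagulation genes of hepatocytes outside the members, 2, 2, 3 and 3 rose and 1, 0, 2 and 2 fell; Kng2 (1.29, 1.41, 1.28 and 1.04) and Ahsg, the fetuin-A gene, rose in all 4. Of 12 coagulation genes of other cells, 3, 2, 5 and 6 rose and none fell, with Anxa2, a plasmin-promoting annexin, higher by 2.51, 2.42, 3.62 and 3.58.

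Among 12 regulators of these genes none rose, and 3, 3, 2 and 1 fell in dHEP alcohol, FF alcohol, dHEP chow and FF chow tumors. Nr1h4, the bile acid receptor FXR, fell in all 4 (-0.80, -1.01, -1.19 and -1.68). Markers of other cells moved with tissue: of 7 Kupffer cell markers 4, 4, 5 and 0 fell, and their summed level was 53.5 to 485 CPM in tumors against 233 to 683 CPM in non-tumor liver, with no marker at 0 in a whole group. Of 5 biliary markers Spp1, which encodes osteopontin, rose in dHEP chow tumors and no other was called. The biliary sum was 7.38 to 751 CPM in dHEP alcohol tumors against 22.5 to 38.9 CPM in their non-tumor liver, 159.4 to 394 CPM against 24.1 to 104 CPM in FF alcohol, 122 to 3166 CPM against 26.9 to 38.1 CPM in dHEP chow and 110.1 to 147 CPM against 22.6 to 27.99 CPM in FF chow mice, most of it from Spp1. Of 7 stellate cell and fibroblast markers 1, 1, 2 and 2 rose and 0, 0, 1 and 0 fell, with a sum of 754 to 1973 CPM in FF chow tumors against 378 to 492 CPM in FF chow non-tumor liver and overlapping sums in the other combinations. Of 7 endothelial markers 1, 1, 0 and 2 rose and 0, 0, 1 and 0 fell, of 7 recruited myeloid markers 0, 0, 1 and 3 rose, and of 5 tested lymphocyte markers 4 rose in FF chow tumors alone. Of 10 hepatocyte markers 3, 3, 1 and 2 rose and 0, 1, 2 and 1 fell. The 5 tumor markers read, Afp and Gpc3 among them, summed to 10.2 to 263 CPM in FF alcohol non-tumor liver. The median there was 113 CPM. The other non-tumor groups reached at most 15.2 CPM (dHEP alcohol), 17.9 CPM (dHEP chow) and 37.4 CPM (FF chow). The lowest tumor sums were 30.2, 360, 92.8 and 336 CPM in dHEP alcohol, FF alcohol, dHEP chow and FF chow mice. Whether some FF alcohol non-tumor livers held tumor tissue was not tested. The part of cell composition in the members' differences was not tested.

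In non-tumor liver most members were lower on alcohol than on chow, by small amounts. The mean was lower on alcohol for 33 of 36 members in dHEP and 32 of 36 in FF mice, where 62.8% and 48.9% of all tested genes were lower, and the median log2 difference was -0.25 in dHEP and -0.28 in FF mice, beside -0.07 and 0.01 over all genes. In both genotypes 29 members were lower, none was higher in both, and C2, C6, C8a, C9, F5, F9 and Pros1 differed in sign. Few passed the test: Itih1 in dHEP mice (0.656% of all tested genes called) and Itih1 and F10 in FF mice (0.577%). Without overlap between the diets, 16 members were lower in dHEP mice, against 12.9% of all genes, and 14 in FF mice, against 5.11%.

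Itih1 lay between 517 and 589.7 CPM in the 8 alcohol-fed non-tumor livers (median 543) and between 740.1 and 871 CPM in the 6 chow-fed ones (median 821), with no overlap. It fell on alcohol by 0.55 in dHEP (adjusted p = 0.0245) and 0.57 in FF mice (adjusted p = 0.0238) on the log2 scale. F10 read between 262 and 309 CPM on alcohol and between 346 and 404 CPM on chow, and fell in FF mice (log2 difference -0.42 ± 0.09, adjusted p = 0.0482). These 3 calls depended on single libraries: Itih1 in dHEP mice was lost without any 1 of the 7 libraries (adjusted p up to 0.147), Itih1 in FF mice without FF-523, FF-158 or FF-159 (up to 0.112), and F10 without FF-523, FF-581, FF-157, FF-158 or FF-159 (up to 0.130). Without FF-158 no member was called in FF mice, and without FF-595 there were 6.

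The 3 fibrinogen chains had lower means on alcohol, with log2 differences for Fga of -0.58 ± 0.24 in dHEP and -0.52 ± 0.24 in FF mice, and none passed (adjusted p 0.312 and 0.352). In FF mice all 3 passed without FF-595 (-0.79 for Fga, -0.70 for Fgb and -0.75 for Fgg, adjusted p 0.0278, 0.0484 and 0.0223). Serpinf2 had -0.48 ± 0.11 in dHEP and -0.50 ± 0.11 in FF mice (adjusted p 0.0648 and 0.0531), the opposite sign to its tumor difference, passed in FF mice without FF-581 (-0.59, adjusted p = 0.0398), and F11 had -0.78 ± 0.23 in dHEP and -0.64 ± 0.23 in FF mice (adjusted p 0.140 and 0.216). Of the complement members of smallest p, C8g had -0.28 ± 0.09 in dHEP and -0.27 ± 0.09 in FF mice, C3 had -0.60 ± 0.22 in FF mice and Mbl1 -0.25 ± 0.17 in dHEP mice, and none passed. F13b, a factor XIII chain, had -0.35 ± 0.10 (adjusted p = 0.121). The diet plot of non-tumor liver shows most members left of 0 in both genotypes. Among the further genes read, Cfd, the alternative-pathway protease adipsin of fat cells, rose on alcohol in FF mice (4.51 ± 0.63, adjusted p = 0.00979), and Hrg, histidine-rich glycoprotein, fell (-0.57 ± 0.10, adjusted p = 0.0238).

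**Figure D5:**
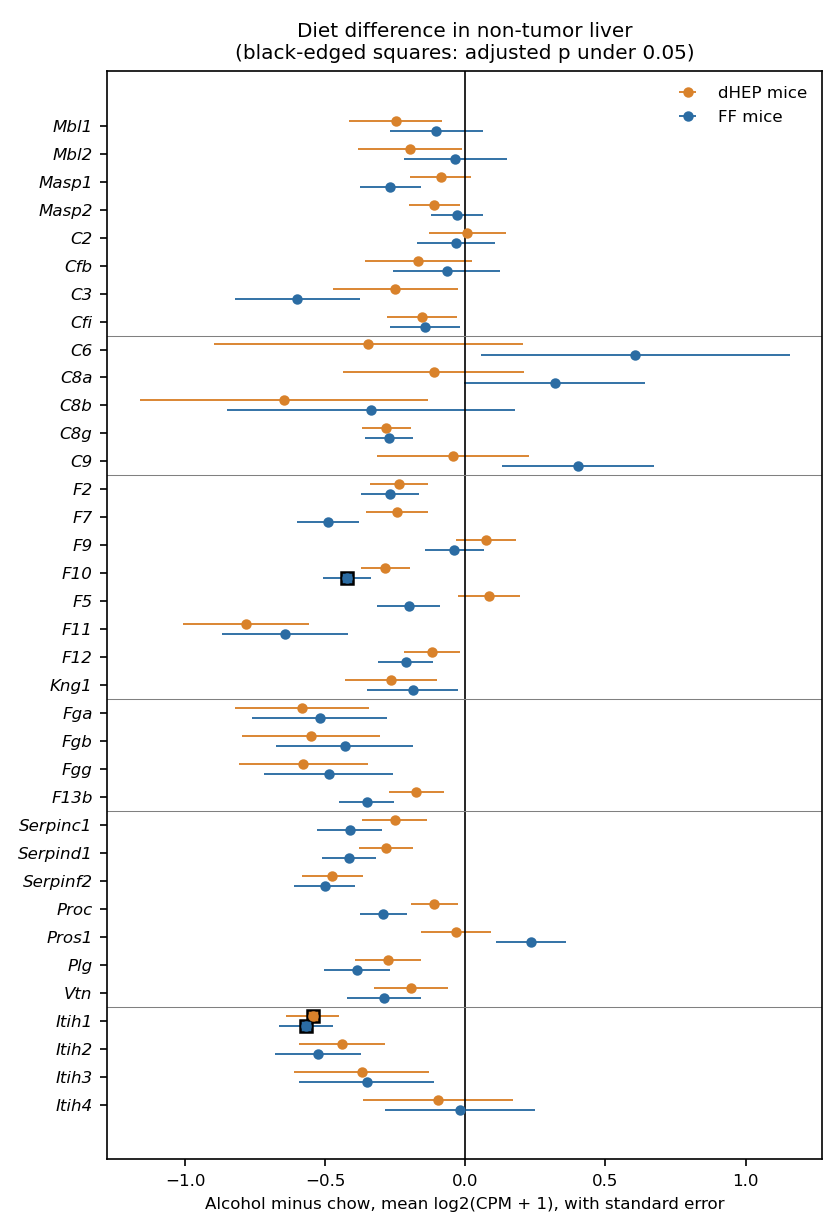
Difference of mean log2(CPM + 1) between alcohol-fed and chow-fed non-tumor liver for the 36 members in dHEP mice (orange, above) and FF mice (blue, below), with standard errors; black-edged squares have an adjusted p under 0.05. Most points lie left of 0 in both genotypes, with Itih1 called in both and F10 in FF mice.

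Averaged over both genotypes, a contrast added after the data were seen, 10 members fell on alcohol in non-tumor liver and none rose, where 2.47% of all genes fell and 1.19% rose. They were Itih1 (-0.56 ± 0.07), F10 (-0.35 ± 0.06), Serpinf2 (-0.49 ± 0.08), Serpind1 (-0.35 ± 0.07), F7 (-0.37 ± 0.08), C8g (-0.28 ± 0.06), F11 (-0.71 ± 0.16), Itih2 (-0.48 ± 0.11), Serpinc1 (-0.33 ± 0.08) and Plg (-0.33 ± 0.08), all log2 ± SE. In 14 fits, each without 1 library, Itih1, F10, Serpinf2 and Serpind1 kept their call throughout. Plg lost its call in 12 of these fits, Serpinc1 in 11, Itih2 in 8, F11 in 5, C8g in 3 and F7 in 2. Fga, Fgb and Fgg had -0.55 ± 0.17, -0.49 ± 0.17 and -0.53 ± 0.16 (adjusted p 0.0951, 0.145 and 0.0920), and without FF-595 they passed (-0.68, -0.62 and -0.66, adjusted p 0.00342, 0.00712 and 0.00239). Over the 8 alcohol-fed and 6 chow-fed livers, 8 members did not overlap and all were lower on alcohol (Itih1, C8g, Serpind1, Serpinc1, F2, F7, F10 and Plg), against 1.26% of all genes. The count of 10 was 4 without non-tumor liver dHEP-165 and 14 without FF-595, 4 without dHEP-155 and FF-158 and 5 without FF-523 and FF-581. It was 6 after median-of-ratios scaling, with none higher.

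In tumors the diets differed less evenly, and no member was called by limma, also averaged over both genotypes (0% of all genes called). In dHEP tumors 4 members were higher (3.36% of all genes) and 3 lower (7.55%) on alcohol at an unadjusted p under 0.05, where 0.00757% of all genes were called after adjustment. In FF tumors none was higher and 2 were lower (4.6%; 0% called after adjustment). Of the 36 members 9 were lower in both genotypes, 8 higher in both (C6, C8a, C8b, C9, F13b, F9, Proc and Serpind1) and 19 of opposite sign. F11 was lower on alcohol in both genotypes without overlap, with 42.1 to 86.8 CPM in the 8 alcohol-fed tumors and 98.4 to 148 CPM in the 6 chow-fed ones. Its log2 difference was -1.01 ± 0.25 in dHEP (adjusted p = 0.198), -0.89 ± 0.25 in FF (adjusted p = 0.804) and -0.95 ± 0.18 over both (adjusted p = 0.118), and 0.174% of all genes lay as separate in that direction. C9 had 1.65 ± 0.59 in dHEP and 1.26 ± 0.59 in FF tumors (adjusted p 0.347 and 0.929), the FF value being 0.67 without tumor FF-168, and Mbl2 had 1.66 ± 0.70 in dHEP tumors and Plg -0.44 ± 0.19 in FF tumors.

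The dHEP genotype was not accompanied by a called difference in any member. Il17ra itself was not called either, and in tumors it overlapped between the genotypes, as given above. Loss of the receptor transcript is therefore not shown for every dHEP tumor. Between dHEP and FF mice no member and no other gene passed in any of the 4 comparisons (limma, 0% of all tested genes called), nor averaged over diets in either tissue. At an unadjusted p under 0.05, in non-tumor liver Proc was higher in dHEP mice on alcohol (2.44% of all genes were) and C3 and F12 were lower on chow (1.99%). In alcohol-fed tumors Masp2 was higher (2.67%) and Cfi and Serpinf2 were lower (3.63%), and in chow-fed tumors C2 was higher (1.01%). The median over the members was 0.00, -0.08, 0.04 and 0.03 in these comparisons, beside -0.05, 0.03, -0.02 and -0.01 over all genes.

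Proc had a mean of 316 ± 17.1 CPM in dHEP and 278 ± 9.77 CPM in FF non-tumor liver on alcohol (SD, n = 4 each), a log2 difference of 0.19 ± 0.08, limma adjusted p = 0.545, and was the only member whose groups did not overlap there, higher in dHEP as for 1.16% of all genes. On chow C3 averaged 7761 ± 1036 CPM in dHEP and 11960.0 ± 4115 CPM in FF non-tumor liver (SD, n = 3 each; log2 difference -0.58 ± 0.24, limma adjusted p = 0.988), and FF-158 was the highest of the FF livers. F12 averaged 352 ± 7.28 CPM in dHEP and 414 ± 29.7 CPM in FF (-0.23 ± 0.11, limma adjusted p = 0.988), and it was among 8 members lower without overlap in dHEP (Vtn, F12, Serpind1, F5, Fga, F9, Fgg and Serpinf2), against 4.64% of all genes. None of these chow values passed the adjusted threshold.

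In alcohol-fed tumors Cfi averaged 731 ± 126 CPM in dHEP and 987 ± 126 CPM in FF (SD, n = 4 each; -0.44 ± 0.18, limma adjusted p = 0.782). Serpinf2 averaged 1093 ± 405 CPM in dHEP and 1499 ± 96.5 CPM in FF (-0.52 ± 0.22, limma adjusted p = 0.782), with dHEP-518 above all FF tumors and the other dHEP tumors below them. Fga, Fgb and Fgg had lower means in dHEP tumors on alcohol (-0.70 ± 0.34, -0.55 ± 0.32 and -0.64 ± 0.30; adjusted p 0.788, 0.841 and 0.788), and Fga, Fgg and Itih4 did not overlap, lower in dHEP as for 2.07% of all genes. F13b and Masp2 did not overlap either, higher in dHEP as for 1.48% of all genes. On chow the fibrinogen means were 6931 CPM in dHEP tumors and 5676 CPM in FF tumors (6813 CPM without FF-168) for Fga, 5850.4 CPM in dHEP tumors and 5278 CPM in FF tumors (6086 CPM without FF-168) for Fgb and 4161 CPM in dHEP tumors and 3495 CPM in FF tumors (4086 CPM without FF-168) for Fgg. Without FF-168 the Fgb mean was thus lower in dHEP tumors, and those of Fga and Fgg were 1.73% and 1.83% higher. On chow C2 averaged 131 ± 21.1 CPM in dHEP and 91.6 ± 29.0 CPM in FF (SD, n = 3 each; 0.55 ± 0.22, limma adjusted p = 1). The genotype-by-diet interaction called no member in non-tumor liver or tumors (limma, 0% of all genes called); the unadjusted count was 0 in non-tumor liver and 2 in tumors (4.95% of all genes), Pros1 (1.04 ± 0.41) and C2 (-0.71 ± 0.29), and the value for Fga was -1.02 ± 0.52 (adjusted p = 0.994). With groups of 3 or 4, small differences could not be detected in these comparisons, so the absence of calls does not show that the genotypes express these genes alike.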

How the data were processed

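Gene expression was measured by RNA sequencing of 28 liver libraries in 8 groups of genotype, diet and tissue. The authors deposited 1 table of CPM, read counts scaled so that every library has the same sum; per the submitters' processing notes STAR 2.5.1a and RSEM 1.3.0 were used with GRCm38, and the step to CPM is not given in the sources used here. Per the labels the molecule was polyA RNA, while the kit named is one for stranded total RNA. RSEM divides reads that fit several genes by estimate, so values of near-identical genes are uncertain. Low values were whole reads for 86.3% of entries within a tolerance of 0.1 read, so no count model was used, and the spacing of low values put the depth at 9.57M to 17.82M reads. Of 22187 gene IDs, 21653 received symbols from the reference annotation; all 36 members were found.

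Values were taken as log2(CPM + 1), which understates changes of low genes, and tested with limma 3.58.1 in R 4.3.3 with a mean-variance trend, over genes that reached 1 CPM in 3 or more fitted libraries. Tissue comparisons and tissue interactions were fitted on all 28 libraries, and genotype and diet comparisons on the 14 libraries of each tissue. P-values were adjusted by Benjamini-Hochberg over all tested genes, with a threshold of 0.05. Standard errors are those of the fit, and SDs those of CPM within a group. The fitting code was tested on simulated data. Members described with a value in every library were those called in a genotype or diet comparison, those among the 8 smallest p of a tumor comparison, and the smallest p of each role in a genotype or diet comparison; C6 and C8b were added after their values were seen. The members and lists were chosen with earlier results of these data known. Tumor and non-tumor libraries with the same mouse number were taken as one mouse: for 11 such pairs the deviations from group means correlated with r between -0.107 and 0.356, above 0.1 in 8. Alternatives covered the pseudocount, low-value filters, median-of-ratios scaling, sample quality weights, the fitted groups, the mouse as a block and leaving out libraries; removal of FF-158 with FF-168 and the averaged contrasts were added after seeing the data. Promoter windows and their sequences came from RefSeq on GRCm38.p6, where 29 of the 36 members had a window.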

Additional observations from a re-analysis of the deposited data

Results flagged for a closer look

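In groups of 4, 8 of 144 tested combinations of member and group held a library far from the other 3, where chance gives about 7.2. Non-tumor liver FF-595 accounted for 3: Fga stood at 7599 CPM against 3541 to 3831 CPM in the other livers of its group, Fgg at 5035 CPM against 2365 to 2540.3 CPM, and Vtn at 2126 CPM against 1531 to 1619 CPM. Mbl1 was low in tumor dHEP-518, at 33.1 CPM against 57.4 to 61.7 CPM. C3 was high in tumor FF-523, at 7760.4 CPM against 5322 to 5699.9 CPM. F13b was high in tumor dHEP-549, at 176 CPM against 155.1 to 157.995 CPM. Serpind1 was low in non-tumor liver dHEP-550, at 408 CPM against 451 to 459 CPM. Itih2 was high in non-tumor liver dHEP-549, at 1028 CPM against 876 to 899 CPM.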

How the results depend on the processing

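The counts of members called between tumor and non-tumor liver stayed within 1.5 times of 13, 16, 19 and 20 (dHEP alcohol, FF alcohol, dHEP chow, FF chow) under the other pseudocount, both filters, median-of-ratios scaling and sample quality weights. These totals hide a loss of higher calls: after scaling the members called higher went from 6, 7, 4 and 5 to 3, 6, 3 and 3. Those called lower went from 7, 9, 15 and 15 to 7, 10, 15 and 16, and no called member changed sign. They were 7 in dHEP alcohol and 12 in dHEP chow mice with the 2 compared groups alone, and 11 in FF chow mice without FF-158 and FF-168. With the replicate block the counts were 12, 17 and 20 in dHEP alcohol, FF alcohol and dHEP chow mice, calls changed only for the genes given with their values above, and the genotype-by-tissue term on alcohol and the diet-by-tissue term of dHEP mice stayed at 0. No paired analysis was possible in FF chow mice because tumors and non-tumor livers share no mouse number. Leaving out 1 library at a time gave 8 to 13, 12 to 15, 15 to 18 and 16 to 20. The diet counts in non-tumor liver were the least stable: in dHEP mice 1 became 0 after median-of-ratios scaling or without dHEP-155 and FF-158, 6 with quality weights and 3 with the 2 groups alone, and 0 in every fit without 1 library (0 to 0); in FF mice 2 became 1 without a low-value filter or after scaling, 5 with weights, 0 with the 2 groups alone, without FF-523 and FF-581, without dHEP-155 and FF-158, or without FF-158, and 0 to 6 without 1 library. The average over genotypes moved from 10 to 6 after scaling, 16 with weights, 5 without FF-523 and FF-581, 4 without dHEP-155 and FF-158, and 4 to 14 without 1 library. Lower means on alcohol held after scaling for 31 members in dHEP and 32 in FF mice. Genotype, interaction and tumor diet counts stayed at 0 under all alternatives run. Signs reversed for values that had not passed: Mbl2 in dHEP alcohol mice (0.105 without tumor dHEP-518; -1.025 to 0.105 without 1 library), Fga in FF chow mice (0.113 without tumor FF-168, with -0.402 to 0.113 without 1 library, and 0.12 without both FF-158 and FF-168), Fgg there (0.002 without both), and, between genotypes in chow tumors without FF-168, F13b (-0.046; range -0.046 to 0.633) and Itih2 (0.159; range -0.635 to 0.159). The causes were not tested. Scaling moved the median of all genes by over 0.1 in both chow tumor comparisons (to 0.02 in dHEP and 0.01 in FF mice) and in the diet comparison of dHEP tumors (to -0.01). Groups of 3 or 4 limit what could be called, and depth was not limiting for members, all at 1 CPM or more in every library.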
